A study of Mus musculus with 9 samples.

Results

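The ubiquitin-conjugating E2 enzymes of the mouse testis were taken as the 35 genes whose symbol starts with Ube2, of 19935 genes measured, and were followed at 8, 16 and 24 days of age. Members were chosen by symbol alone, from the 48 array rows that carried exactly 1 gene symbol of this kind, a rule that uses no measured value, although earlier results of these data were known when the gene family was picked. Whole testis of male Swiss albino mice from an inbred line, reared without treatment, was profiled on 9 arrays, with 3 biological replicates at 8 days, 3 at 16 days and 3 at 24 days. The ages cover the first wave of spermatogenesis, in which a first cohort of germ cells passes together from spermatogonia through meiosis to spermatids. The values were deposited as log2 signals relative to the median of each row over the 9 arrays, so they show how a gene changed with age but give no level, and genes are compared only in their changes.

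Ubiquitin reaches its targets through 3 enzymes acting in turn. An E1 enzyme activates ubiquitin, an E2 carries it on a cysteine, and an E3 ligase brings the loaded E2 to the substrate, so that the pairing of E2 and E3 sets where ubiquitin goes and which type of chain is built. In the testis ubiquitin is known for the marking of meiotic chromosomes and for the removal of histones and cytoplasm from spermatids, and male mice that lack Ube2b are infertile. Ube2cbp was kept because its symbol fits, although the protein, also named Ube3d, is known as an E3-type protein that binds an E2. The E2 of NEDD8, Ube2m, is not analysed here, nor are 4 rows that pair a Ube2 gene with another symbol.

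The 4 E2 genes that rose most over the whole span were Ube2d2b, Ube2u, Ube2dnl2 and Ube2s, and the first 3 are shown here, with Ube2dnl1 as the neighbour of Ube2dnl2, through the 250 bases before their annotated start. The sequences are RefSeq's, of build GRCm38.p6, on the plus strand and 5′ to 3′. They were chosen after the changes of these genes were known. Ube2d2b, a UBE2D-type gene on chromosome 5, is shown with its CG pairs in capitals (chr5:107829912-107830161).
Ube2d2b: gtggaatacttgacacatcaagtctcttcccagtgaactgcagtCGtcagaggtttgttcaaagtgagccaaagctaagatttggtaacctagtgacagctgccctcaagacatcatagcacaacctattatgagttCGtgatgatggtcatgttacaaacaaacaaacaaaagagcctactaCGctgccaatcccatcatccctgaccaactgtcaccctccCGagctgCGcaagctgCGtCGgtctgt
Ube2u, on chromosome 4, encodes an E2 whose targets are little studied, and the capitals mark matches to the 3 motifs TGACATCA (here read on the other strand), AACNGTT and an X-box type (chr4:100478617-100478866).
Ube2u: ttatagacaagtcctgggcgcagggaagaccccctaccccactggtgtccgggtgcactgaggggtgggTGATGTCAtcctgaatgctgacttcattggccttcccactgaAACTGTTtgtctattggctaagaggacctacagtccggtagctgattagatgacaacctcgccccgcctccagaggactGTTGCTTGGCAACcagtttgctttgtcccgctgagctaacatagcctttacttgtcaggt
Ube2dnl1 and Ube2dnl2 encode proteins like the N-terminal part of UBE2D, and their capitals mark the longest run that both windows share (chrX:114904762-114905011 and chrX:114907332-114907581).
Ube2dnl1: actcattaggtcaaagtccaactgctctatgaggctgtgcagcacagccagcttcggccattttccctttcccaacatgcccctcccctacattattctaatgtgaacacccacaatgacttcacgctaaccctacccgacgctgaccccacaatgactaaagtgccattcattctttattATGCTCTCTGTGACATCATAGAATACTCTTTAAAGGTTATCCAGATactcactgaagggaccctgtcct
Ube2dnl2: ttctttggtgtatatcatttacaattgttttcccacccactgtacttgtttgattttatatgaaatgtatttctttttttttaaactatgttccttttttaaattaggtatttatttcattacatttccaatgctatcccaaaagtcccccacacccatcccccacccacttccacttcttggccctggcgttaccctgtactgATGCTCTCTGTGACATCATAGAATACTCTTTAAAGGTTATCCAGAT

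The starts of Ube2dnl1 and Ube2dnl2 lie 2570 bases apart on the X chromosome. The shared run is 46 bases long and covers bases -69 to -24 before the start of Ube2dnl1 and bases -46 to -1 before that of Ube2dnl2. It holds TGACATCA, which differs by 1 base from the cAMP response element TGACGTCA, a site bound by CREB-type factors such as the germ cell activator CREM. TGACATCA, searched on both strands, was in 2.928% of all 32851 windows of the same length, and among the 38 windows of the 29 E2 genes that had one it was found for Ube2u, Ube2dnl1, Ube2dnl2 and Ube2h. TGACGTCA was in 1.546% of all windows and, among E2 genes, in that of Ube2h, which was not called at any age. AACNGTT, the core of MYB sites, was in 3.796% of all windows and lay at bases -139 to -133 of Ube2u. The palindromic X-box type, bound by RFX factors and also searched on both strands, was in 0.5905% of all windows and lay at bases -60 to -48 of Ube2u. The 3 motifs do not overlap in Ube2u. These motifs were picked after the sequences had been read, and a match is a description of the letters.

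The windows also differed in their CG pairs. Ube2dnl2 had 1 CG pair in 250 bases, Ube2dnl1 4, Ube2u 6 and Ube2d2b 7. The other 25 E2 genes had 34 windows with 4 to 48 CG pairs and a median of 24, and 1 of these windows, of Ube2h, had 7 or fewer. Over all 32851 windows the median was 6, and 57.0% had 7 or fewer, so the other E2 genes, and not these 4, stood away from the median window.

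Of the 35 E2 genes, 22 changed between at least 1 pair of ages and 13 passed the test in none of the 3 comparisons, where a gene was called at a Benjamini-Hochberg adjusted p under 0.05 in limma over all genes. The same held for 56.84% of all genes. In 16 versus 8 days 4 E2 genes rose and 2 fell (11.4% and 5.71%), against a background of 10.4% and 14.3% of all genes, 24.7% in all. In 24 versus 16 days 6 rose and 6 fell (17.1% each), against 13.2% and 20.1% of all genes, 33.3% in all. In 24 versus 8 days 9 rose and 12 fell (25.7% and 34.3%), against 19.2% and 35.2%, 54.4% in all. With each array centred on its own median the E2 counts in the same order were 4 and 0, 6 and 3, and 11 and 9. The shares of all genes called with centring were not counted. Centring added 0.03, 0.09 and 0.12 to the 3 log2 changes. The median log2 change of the E2 genes was 0.00, 0.04 and -0.07, beside -0.02, -0.16 and -0.18 over all genes.

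Most of these changes were small. A called change of at least 1 on the log2 scale, a doubling, was seen in 5 E2 genes, which were Ube2d2b, Ube2u, Ube2dnl2, Ube2s and Ube2t, and all 5 were rises. No E2 gene rose in one interval and fell in the other, and Ube2d2b and Ube2u were the 2 that were called in both. The shares of all genes with a called doubling, or with calls in both intervals, were not counted. These E2 counts therefore have no background beside them. Groups of arrays that did not overlap were 6 E2 genes higher and 5 lower at 16 than at 8 days (14.7% and 21.5% of all genes), 7 and 9 at 24 than at 16 days (16.5% and 39.1%), and 11 and 14 at 24 than at 8 days (20.5% and 45%).

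**Figure D1:**
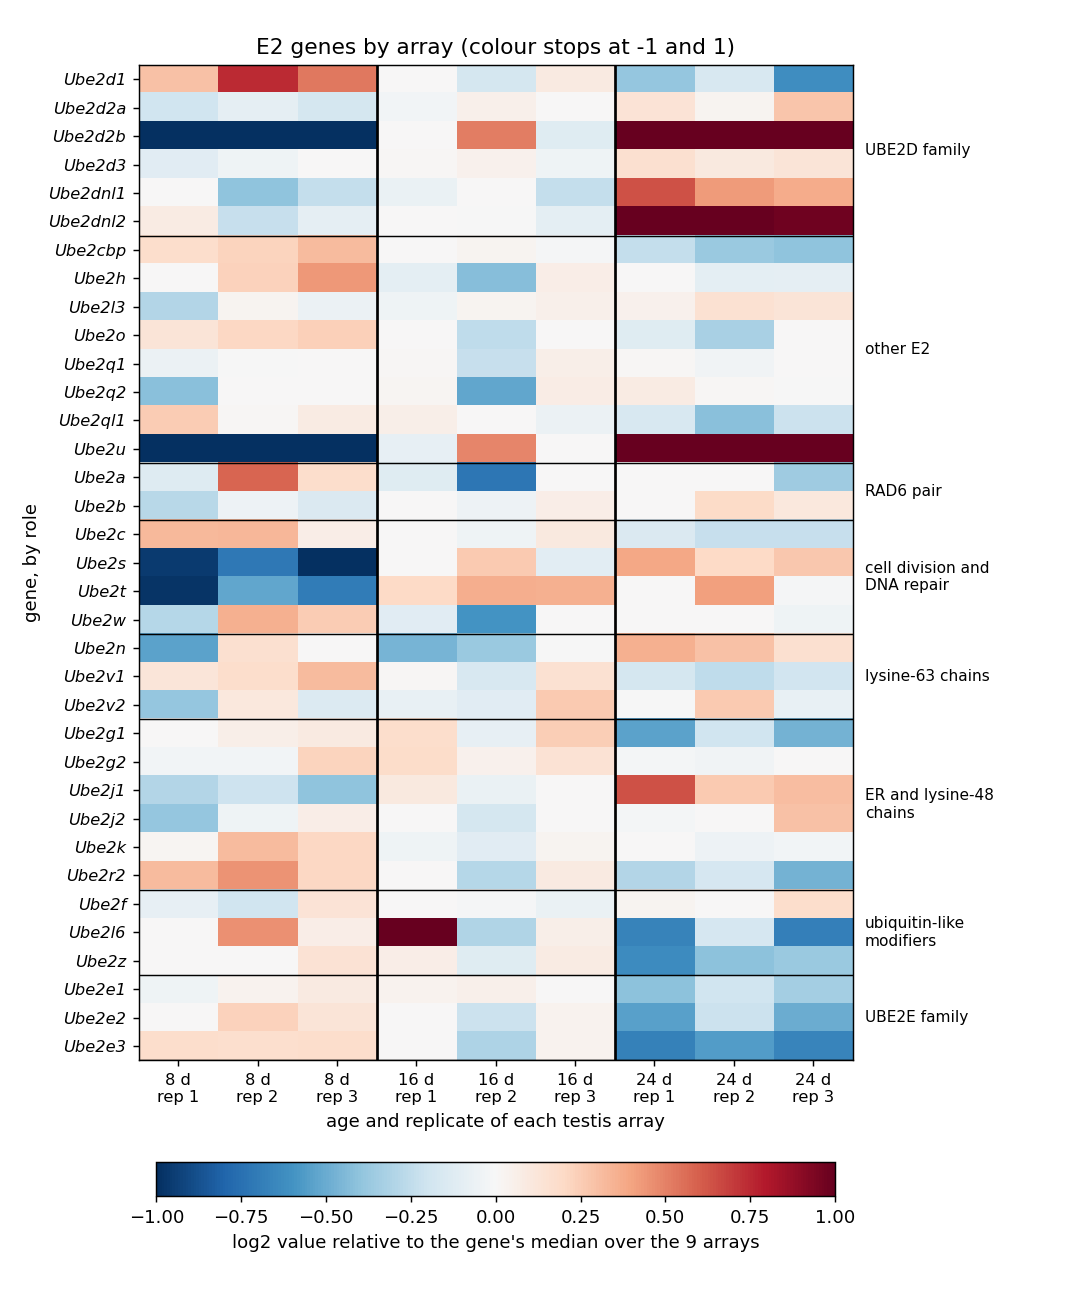
Each row is an E2 gene, grouped by role, and each column 1 of the 9 arrays, from 8 to 24 days; colour is the log2 value relative to the gene's median over the arrays and stops at -1 and 1. Ube2d2b and Ube2u are blue in the 3 arrays at 8 days and red in the 3 at 24 days, Ube2dnl2 is red at 24 days, and Ube2s and Ube2t are blue at 8 days.

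The medians of the arrays over all genes differed with age. They ran from 0.00 to 0.12 in the arrays at 8 and 16 days and from -0.10 to -0.07 in those at 24 days. The E2 counts with each array centred on its median are given above. Replicate 1 at 8 days and replicate 2 at 16 days stood apart, with a median of 0.17 over 1027 olfactory receptor genes, which ran from -0.05 to 0.03 in the other 7 arrays. In replicate 2 at 16 days Ube2a, Ube2h, Ube2q2 and Ube2w had their lowest value of the 9 arrays, between -0.73 and -0.42. Without these 2 arrays the E2 counts were 4 rises and 4 falls, 6 and 10, and 8 and 16 in the 3 comparisons. The shares of all genes called without these 2 arrays were not counted, so these counts have no background beside them. Since whole testis was measured, fewer cells of a type and less RNA per cell cannot be told apart in any fall or rise, and the 9 arrays limit the precision.

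Marker genes of the cell types of the testis changed with age. All 8 markers of pachytene spermatocytes rose in 16 versus 8 days, and their mean per array was -3.52 to -3.27 at 8 days, 0.04 to 0.42 at 16 days and 0.76 to 0.90 at 24 days. All 8 spermatid markers rose in 24 versus 16 days, with means of -0.28 to 0.01, -0.30 to -0.00 and 3.55 to 4.69. The means of 8 spermatogonial markers were 0.50 to 0.63, -0.40 to 0.15 and -0.95 to -0.80, and those of 8 Sertoli cell markers were 0.46 to 0.67, -0.16 to 0.10 and -0.57 to -0.30. The mean of 5 Leydig cell markers was 1.32 to 1.72 at 8 days, -0.87 to -0.33 at 16 days and -1.07 to -0.11 at 24 days, and that of 7 peritubular, endothelial and macrophage markers was 0.44 to 0.64, -0.10 to 0.06 and -0.52 to -0.27. Members of a list did not all move alike. Of the 8 Sertoli cell markers 4 fell and 4 were not called in 16 versus 8 days, where 14.3% of all genes fell. Of the 5 Leydig cell markers 1 rose, 1 fell and 3 were not called in 24 versus 16 days, where 13.2% of all genes rose and 20.1% fell. The part of the marker shifts in the changes of the E2 genes was not tested.

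The UBE2D family, E2 enzymes that work with a wide range of RING-type E3 ligases, held the largest rise. Ube2d2b had log2 values of -4.84, -5.11 and -4.99 in the 3 arrays at 8 days, 0, 0.51 and -0.12 at 16 days, and 1.80, 1.47 and 1.58 at 24 days. The 0 is a blank cell, taken as the median array. All 3 ages were apart from each other in every array, with the widest gap between 8 and 16 days. The log2 change was 5.11 ± 0.16 (SE) in 16 versus 8 days (34.5-fold, adjusted p = 5.4e-08 by limma), the 7th highest of all genes, and 1.49 ± 0.16 in 24 versus 16 days (2.8-fold, adjusted p = 0.000171). Over the whole span it was 6.59 ± 0.16 (96.6-fold, adjusted p = 7.68e-09), the 4th highest of all genes.

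The 3 other full-length UBE2D genes moved far less. Ube2d1 had 0.29, 0.75 and 0.53 at 8 days, 0.00, -0.17 and 0.09 at 16 days, and -0.39, -0.16 and -0.62 at 24 days. It was highest in all 3 arrays at 8 days, and fell by 0.55 ± 0.15 in 16 versus 8 days (adjusted p = 0.0214) and by 0.91 in 24 versus 8 days (adjusted p = 0.000443). The call in 16 versus 8 days was lost when replicate 2 or 3 at 8 days or replicate 1 or 2 at 16 days was left out (adjusted p up to 0.0803) and with each array centred; that in 24 versus 8 days was kept without any 1 array. Ube2d2a, on chromosome 18, had -0.20, -0.09 and -0.17 at 8 days, -0.03, 0.05 and 0 at 16 days, and 0.14, 0.02 and 0.28 at 24 days. Its arrays at 24 days were all above those at 8 days, and it rose in that comparison alone, by 0.30 (adjusted p = 0.0145; 0.24 and adjusted p = 0.0646 without replicate 3 at 24 days). Ube2d3 averaged -0.05 ± 0.06 at 8 days, 0.01 ± 0.04 at 16 days and 0.13 ± 0.03 at 24 days (SD, n = 3 each), and its change of 0.18 in 24 versus 8 days did not pass the test (adjusted p = 0.0647). The 3 rows of Ube2d3 gave 0.24, 0.03 and 0.28 for this change, with differences between rows of up to 0.36 in single arrays, and it passed with each array centred (0.30, adjusted p = 0.0141). UBE2D genes and their processed copies are close in sequence, so signals shared between them could not be separated.

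Set against its family in the same array, Ube2d2b changed by slightly more than on its own. Its value minus the mean of Ube2d1, Ube2d2a and Ube2d3 was -4.83, -5.31 and -5.11 at 8 days, 0.0041, 0.53 and -0.14 at 16 days, and 1.83, 1.49 and 1.65 at 24 days. These are differences between values that were each centred on the gene's own median, so the sign alone has no meaning and the change with age is the measure. The mean was -5.08 ± 0.24, 0.13 ± 0.35 and 1.65 ± 0.17 (SD, n = 3 arrays each), a change of 5.22 in 16 versus 8 days and of 1.52 in 24 versus 16 days. An exact permutation test of the F statistic over the 1680 assignments of the arrays to ages gave p = 0.00357, the smallest it can give. With 1 partner in place of the mean, the change in 16 versus 8 days was 5.66 against Ube2d1, 4.95 against Ube2d2a and 5.05 against Ube2d3, so the choice of partner moved it by less than 1. The test asks only whether this difference varied with age. As the rise of Ube2d2b was known and far larger than the changes of its partners, the outcome was largely fixed in advance. The p-value is thus no independent evidence of the rise or about the family, and only the sizes of the changes compare the genes.

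The X-linked pair rose in 24 versus 16 days. Ube2dnl2 had 0.08, -0.23 and -0.09 at 8 days, 0, -0.0036 and -0.09 at 16 days, and 1.82, 1.36 and 0.97 at 24 days, where the first value at 16 days is a blank. Its arrays at 8 and 16 days overlapped and those at 24 days were all above them. The log2 change was 1.42 ± 0.18 in 24 versus 16 days (2.67-fold, adjusted p = 0.000479) and 0.05 ± 0.18 in 16 versus 8 days (adjusted p = 0.952). Ube2dnl1 had 0, -0.40 and -0.24 at 8 days, -0.06, 0 and -0.23 at 16 days, and 0.63, 0.43 and 0.37 at 24 days, both zeros being blanks. Its arrays at 24 days were also above all others, and it rose by 0.58 ± 0.12 in 24 versus 16 days (adjusted p = 0.00684), with 0.11 ± 0.12 before (adjusted p = 0.656). In the interval of this rise all 8 spermatid markers rose as well; their part in it was not tested. The second minus the first change was 1.37 for Ube2dnl2, a call that was lost in 10 of 21 alternatives. For Ube2dnl1 it was 0.46 and was not called (adjusted p = 0.337 by limma), so a later timing was not established for that gene. The 2 genes share a part of their sequence, so that their signals may not be fully apart.

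**Figure D2:**
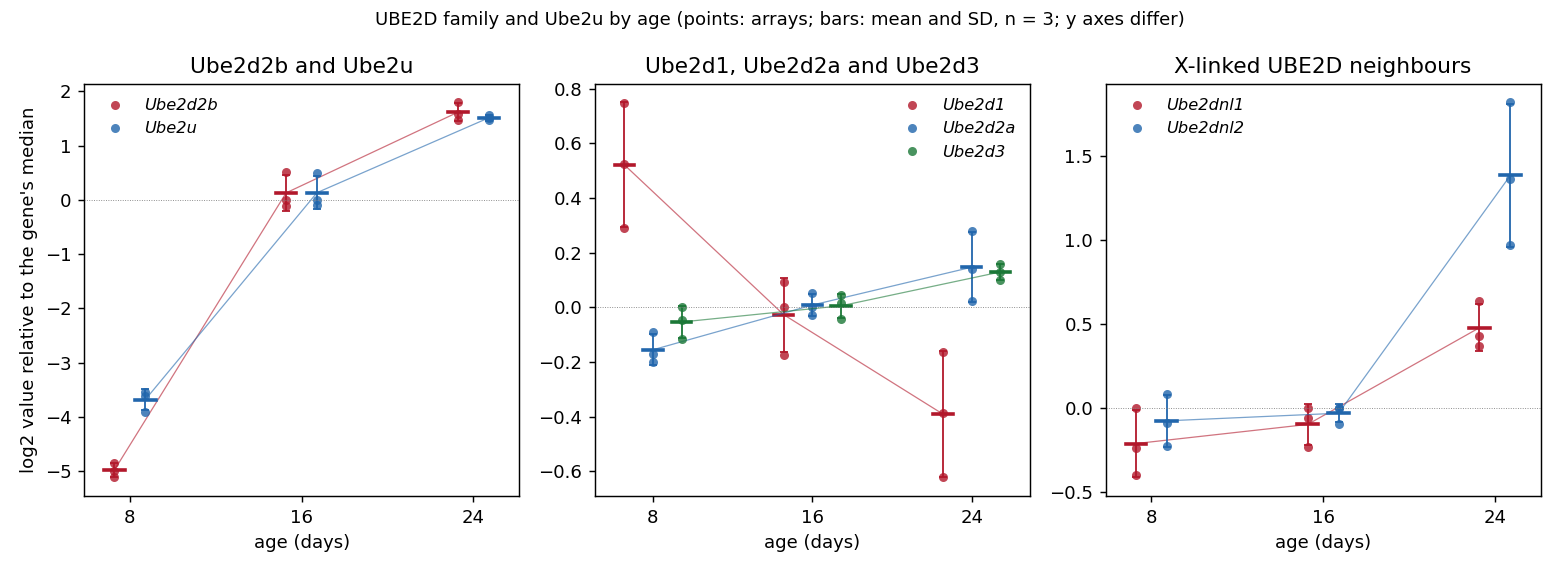
Points are arrays, with the mean and SD of 3 arrays per age; the y axis is the log2 value relative to the gene's median and its range differs between panels. Ube2d2b and Ube2u climb most between 8 and 16 days, Ube2d1, Ube2d2a and Ube2d3 stay between -0.62 and 0.75, and Ube2dnl1 and Ube2dnl2 are higher at 24 days than at both earlier ages.

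Ube2u was the second E2 gene with a large change in both intervals. It had -3.54, -3.90 and -3.60 at 8 days, -0.09, 0.49 and 0 (a blank) at 16 days, and 1.57, 1.501 and 1.47 at 24 days. No array of one age overlapped another age. The log2 change was 3.81 ± 0.15 in 16 versus 8 days (14.1-fold, adjusted p = 2.01e-07), the 38th highest of all genes, and 1.38 ± 0.15 in 24 versus 16 days (adjusted p = 0.000191). Over the whole span it was 5.19, or 36.6-fold. The changes of Ube2d2b and Ube2u were called under all 22 alternative settings, and in both genes the second change was smaller than the first. The second minus the first change was -3.62 for Ube2d2b and -2.44 for Ube2u, both called in the test of that difference, in which 1 E2 gene was higher and 3 were lower in the second interval (3.06% and 2.31% of all genes, 5.38% in all). The list of 8 pachytene markers also had its larger median rise in the first interval, 3.54 in 16 versus 8 days and 0.51 in 24 versus 16 days. In the test of that difference 6 of these markers were lower in the second interval and 2 were not called. Pgk2 went the other way, with rises of 1.996 and then 2.901, a difference that was not called (adjusted p = 0.4158 by limma). The part of the pachytene markers in the changes of Ube2d2b and Ube2u was not tested.

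**Figure D3:**
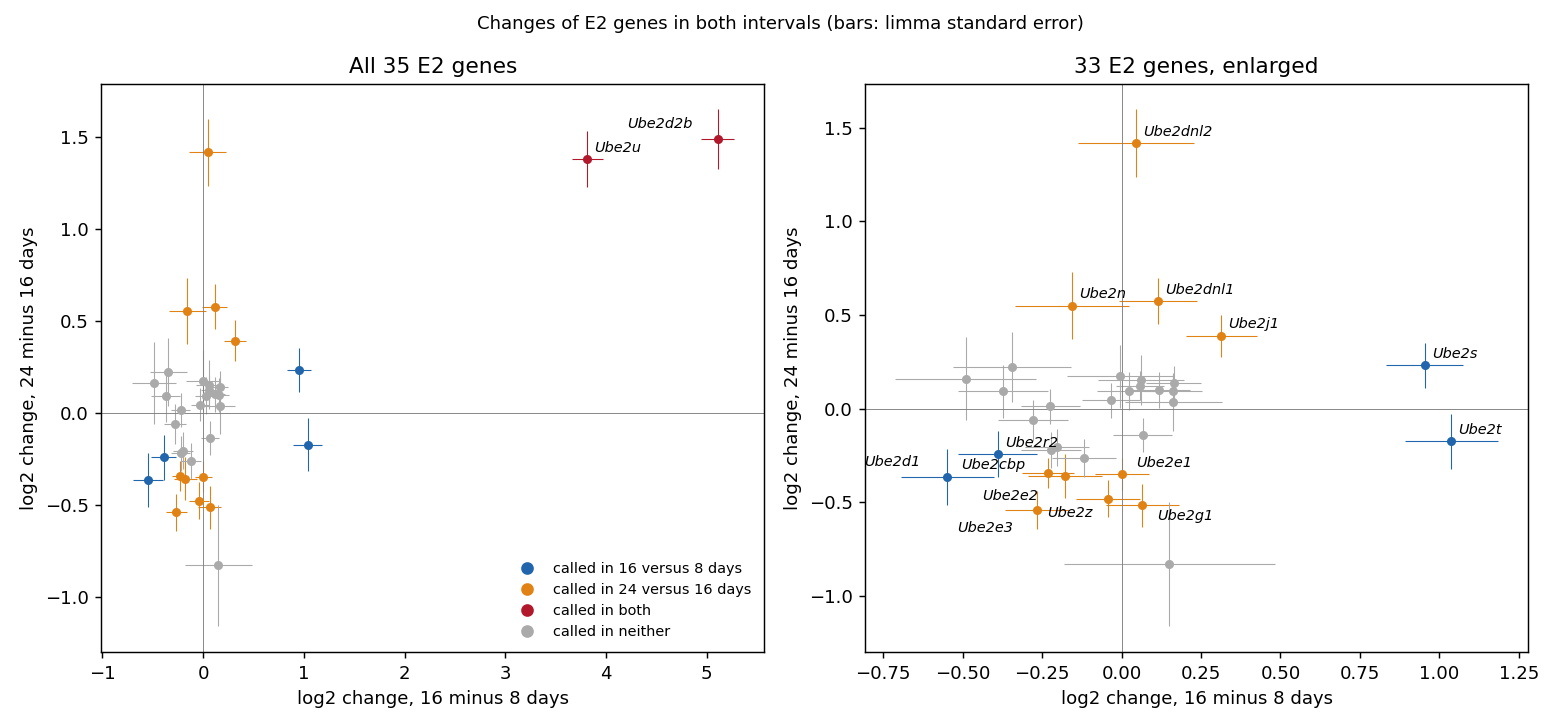
Each point is an E2 gene, with its log2 change in 16 versus 8 days on the x axis and in 24 versus 16 days on the y axis; bars are limma standard errors, and the right panel enlarges the 33 genes other than Ube2d2b and Ube2u. Ube2d2b lies at 5.11 and 1.49 and Ube2u at 3.81 and 1.38, Ube2s and Ube2t lie to the right, Ube2dnl2 at the top, and most others lie near 0.

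Ube2a and Ube2b encode the mouse counterparts of yeast RAD6, which ubiquitylates histone H2B with RNF20 and RNF40 and PCNA with RAD18; Ube2a is on the X chromosome, which is silenced in pachytene spermatocytes, and Ube2b on chromosome 11. Ube2a had -0.13, 0.58 and 0.17 at 8 days, -0.12, -0.73 and 0.0026 at 16 days, and 0, 0 and -0.36 at 24 days. Its arrays overlapped between all ages, and the changes of -0.49 ± 0.22 in 16 versus 8 days (adjusted p = 0.148) and 0.16 in 24 versus 16 days (adjusted p = 0.566) did not pass. Ube2b had -0.28, -0.05 and -0.15 at 8 days, 0, -0.05 and 0.06 at 16 days, and 0, 0.19 and 0.11 at 24 days. It rose by 0.26 in 24 versus 8 days (adjusted p = 0.0363), a call that was lost in 11 of 21 alternatives, among them leaving out replicate 1 or 3 at 8 days, replicate 1 at 16 days, or replicate 2 or 3 at 24 days (adjusted p up to 0.122). Ube2b minus Ube2a within arrays averaged -0.37 ± 0.24 at 8 days, 0.28 ± 0.34 at 16 days and 0.22 ± 0.23 at 24 days (SD, n = 3 each). An exact permutation test over the 3 ages, added after the values were seen, gave p = 0.0464, and 0.0393 to 0.186 when 1 array was left out. It was above 0.05 without any 1 of the arrays at 8 days, without replicate 1 at 16 days, and without replicate 1 or 2 at 24 days.

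The partners of the RAD6 pair changed in different directions. Rad18 rose in 16 versus 8 days (log2 change 0.42, adjusted p = 0.0308 by limma). Rnf20 fell by 0.46 and Rnf40 rose by 0.50 in 24 versus 16 days (adjusted p = 0.0126 and 0.0122), although both proteins form 1 complex. Ubr2, an E3 of the N-end rule pathway that works with this E2 pair, fell by 0.49 in 24 versus 16 days (adjusted p = 0.00256 by limma). Ubr1, of the same pathway, changed by 0.27 there and was not called (adjusted p = 0.0638). In 24 versus 8 days Ubr2 fell by 0.61 (adjusted p = 0.000181) and Ubr1 rose by 0.49 (adjusted p = 0.00210). These partners were named after their values were seen.

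The E2 genes of cell division and DNA repair split. Ube2s, which extends ubiquitin chains for the anaphase-promoting complex, had -0.95, -0.72 and -1.03 at 8 days, 0, 0.26 and -0.10 at 16 days, and 0.39, 0.20 and 0.27 at 24 days. All its arrays at 8 days were below all others, and it rose by 0.95 ± 0.12 in 16 versus 8 days (adjusted p = 0.000376) and by 1.19 in 24 versus 8 days (adjusted p = 2.19e-05). The 2 rows of Ube2s differed by at most 0.03 in any array. Ube2t, the E2 that puts ubiquitin on FANCD2 in the Fanconi anaemia pathway of DNA crosslink repair, had -0.98, -0.52 and -0.70 at 8 days, 0.20, 0.36 and 0.36 at 16 days, and 0, 0.41 and -0.01 at 24 days. It rose by 1.04 ± 0.15 in 16 versus 8 days (adjusted p = 0.000721), while its change of -0.17 in 24 versus 16 days did not pass (adjusted p = 0.354), and the arrays of those 2 ages overlapped.

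Ube2c, which starts the chains that Ube2s extends, went the other way. It had 0.33, 0.33 and 0.07 at 8 days, 0, -0.04 and 0.10 at 16 days, and -0.15, -0.23 and -0.23 at 24 days. Its arrays at 24 days were all below the others, and it fell by 0.44 in 24 versus 8 days (adjusted p = 0.00266), while its changes of -0.22 in each interval did not pass. Ube2w, which can place ubiquitin on the N terminus of proteins, ranged from -0.60 to 0.36 and was not called. Among 10 markers of dividing cells 3 rose and 3 fell in 16 versus 8 days, with list means of -0.29 to 0.04 at 8 days, -0.09 to 0.06 at 16 days and 0.05 to 0.11 at 24 days. Of the proteins that switch on the anaphase-promoting complex, Cdc20 rose by 0.73 in 24 versus 8 days (adjusted p = 0.00208) and Fzr1 by 0.45 in 24 versus 16 days (adjusted p = 0.0116), both named after their values were seen.

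**Figure D4:**
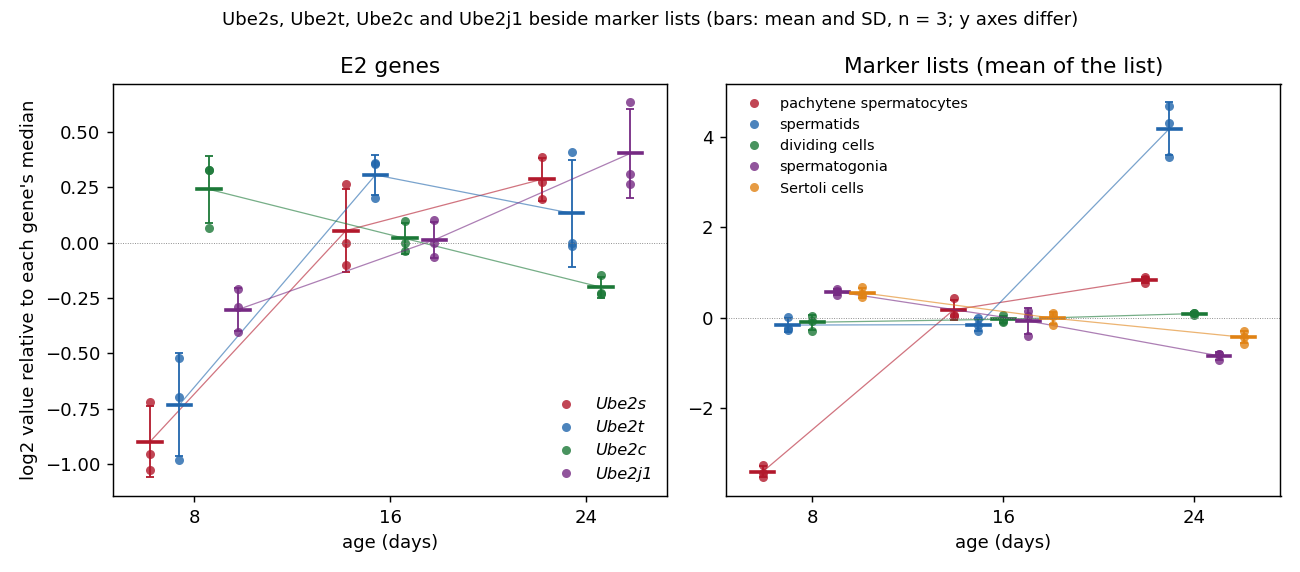
The left panel shows Ube2s, Ube2t, Ube2c and Ube2j1 and the right panel the mean of each marker list, by age; points are arrays, bars the mean and SD of 3 arrays, and the y axis is the log2 value relative to each gene's median. Ube2s, Ube2t and Ube2j1 are lower at 8 days than at 24 days, Ube2c is higher at 8 days, and the pachytene list is between -3.52 and -3.27 at 8 days while the spermatid list is between 3.55 and 4.69 at 24 days.

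Of the 6 E2 genes of the endoplasmic reticulum and of chains that lead to the proteasome, 1 fell in 16 versus 8 days. In 24 versus 16 days 1 rose and 1 fell, and over the whole span 1 rose and 2 fell. Of all genes 14.3% fell in 16 versus 8 days, and 13.2% rose and 20.1% fell in 24 versus 16 days. Over the whole span 19.2% of all genes rose and 35.2% fell. Ube2j1, a membrane-bound E2 that ubiquitylates misfolded proteins of the endoplasmic reticulum, had -0.29, -0.21 and -0.40 at 8 days, 0.10, -0.06 and 0 at 16 days, and 0.63, 0.27 and 0.31 at 24 days. Its arrays formed 3 groups in the order of age, and it rose by 0.71 in 24 versus 8 days (adjusted p = 0.000406) and by 0.39 ± 0.11 in 24 versus 16 days (adjusted p = 0.0241). The later call was lost without any 1 of the arrays at 16 days or without replicate 1 at 24 days (adjusted p up to 0.0900). Ube2g1, which builds chains for proteasomal breakdown, had 0, 0.06 and 0.09 at 8 days, 0.18, -0.08 and 0.25 at 16 days, and -0.54, -0.20 and -0.47 at 24 days. The 24-day arrays lay below all others, a fall of 0.52 ± 0.12 in 24 versus 16 days (adjusted p = 0.00878).

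Ube2r2, a CDC34-type E2 of the SCF ligases, had 0.32, 0.45 and 0.21 at 8 days, 0, -0.29 and 0.09 at 16 days, and -0.29, -0.17 and -0.47 at 24 days. It fell by 0.63 in 24 versus 8 days (adjusted p = 0.00154). Its fall of 0.39 ± 0.12 in 16 versus 8 days (adjusted p = 0.0450) was lost in 16 of 22 alternatives, including the removal of any array except replicate 3 at 16 days or replicate 3 at 24 days (adjusted p up to 0.150). Ube2g2, Ube2j2 and Ube2k, of the same group, were not called at any age.

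Ube2n, the E2 that builds the chains used in DNA damage signalling, had -0.54, 0.16 and 0 at 8 days, -0.47, -0.37 and -0.0060 at 16 days, and 0.35, 0.29 and 0.16 at 24 days. It rose by 0.55 ± 0.18 in 24 versus 16 days (adjusted p = 0.0404), but its arrays at 8 days overlapped with both other ages, and the call was lost in 10 of 22 alternatives, among them leaving out replicate 3 at 8 days, replicate 1 or 2 at 16 days, or any array at 24 days (adjusted p up to 0.139). Ube2v1 and Ube2v2 encode its inactive partners, which direct the type of chain. Ube2v1 fell by 0.41 in 24 versus 8 days (adjusted p = 0.00561; -0.29 and adjusted p = 0.0568 with each array centred), with -0.50, -0.17 and -0.55 in its 3 rows. Ube2v2 changed by 0.20 in the same comparison (adjusted p = 0.288), with 0.37, -0.15 and 0.38 in its rows. Both genes have rows that disagree, and copies close in sequence may be counted in them.

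The 3 UBE2E genes, which differ from UBE2D by an N-terminal extension, all fell in 24 versus 16 days and in 24 versus 8 days. Of all genes 20.1% and 35.2% fell in these comparisons, and 3 genes are too few to read against those shares. Ube2e3 had 0.18, 0.17 and 0.18 at 8 days, 0, -0.31 and 0.03 at 16 days, and -0.68, -0.56 and -0.66 at 24 days. All its arrays at 24 days were below all others, and it fell by 0.54 ± 0.10 in 24 versus 16 days (adjusted p = 0.00372) and by 0.81 in 24 versus 8 days (adjusted p = 8.45e-05). Ube2e1 had -0.04, 0.03 and 0.09 at 8 days, 0.04, 0.05 and 0 at 16 days, and -0.41, -0.20 and -0.34 at 24 days. It fell by 0.35 ± 0.08 in 24 versus 16 days (adjusted p = 0.0118), and the call was lost without replicate 1 at 16 days, without replicate 1 at 24 days (adjusted p up to 0.0561) and with each array centred, which also ended its call in 24 versus 8 days (-0.23, adjusted p = 0.0655).

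Ube2e2 had 0, 0.23 and 0.13 at 8 days, 0.0054, -0.22 and 0.04 at 16 days, and -0.54, -0.21 and -0.49 at 24 days. It fell by 0.54 in 24 versus 8 days (adjusted p = 0.00284). Its fall of 0.36 ± 0.12 in 24 versus 16 days (adjusted p = 0.0390) was lost in 12 of 22 alternatives. Among them were leaving out replicate 3 at 8 days or replicate 1 or 3 at 16 or at 24 days (adjusted p up to 0.141). The call was also lost with each array centred (-0.27, adjusted p = 0.153 by limma). Spermatogonial and Sertoli cell marker means also fell with age, as given above, and their part in the falls of the UBE2E genes was not tested.

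Of the E2 genes for ubiquitin-like modifiers, Ube2z changed. Ube2z, which takes ubiquitin or FAT10 from the E1 enzyme Uba6, had 0.0059, 0 and 0.14 at 8 days, 0.06, -0.12 and 0.08 at 16 days, and -0.63, -0.41 and -0.37 at 24 days. It was lowest in the 3 arrays at 24 days and fell by 0.48 ± 0.10 in 24 versus 16 days (adjusted p = 0.00637). Uba6 itself fell by 0.55 in the same comparison (adjusted p = 0.0126). Ube2l6, the E2 of the interferon-induced modifier ISG15, spread widely at 16 days, with 1.21, -0.30 and 0.06, and its change of -0.83 ± 0.33 in 24 versus 16 days did not pass (adjusted p = 0.0790). Ube2f, the second E2 of NEDD8, stayed between -0.20 and 0.17.

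The remaining members mostly kept within narrow bounds. Ube2cbp had 0.18, 0.22 and 0.32 at 8 days, 0, 0.03 and -0.01 at 16 days, and -0.23, -0.37 and -0.40 at 24 days, 3 groups in the order of age. It fell by 0.34 ± 0.08 in 24 versus 16 days (adjusted p = 0.0112; -0.26 and adjusted p = 0.0732 with each array centred) and by 0.57 in 24 versus 8 days (adjusted p = 0.000199). Ube2ql1 fell by 0.38 (adjusted p = 0.00850) and Ube2o, a large protein that combines E2 and E3 functions, fell by 0.34 in 24 versus 8 days (adjusted p = 0.0230). The call of Ube2o was lost without replicate 2 or 3 at 8 days, without replicate 1 or 2 at 24 days (adjusted p up to 0.0902) and with each array centred (-0.22, adjusted p = 0.159). Ube2h, Ube2l3, Ube2q1 and Ube2q2 were not called in any comparison. The 3 rows of Ube2l3, an E2 for HECT and RBR ligases, differed by up to 0.50 and gave changes of 0.32, 0.03 and 0.30 in 24 versus 8 days, and the gene passed with each array centred (0.34, adjusted p = 0.0325).

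The other steps of the pathway changed on both sides as well. Of 10 listed E1 genes 7 were measured, of which 1 rose in 16 versus 8 days, 1 rose and 3 fell in 24 versus 16 days, and 1 rose and 2 fell in 24 versus 8 days, lists too short to read against the 19.2% and 35.2% of all genes that rose and fell over the whole span. Over the whole span Uba1y, the Y-linked E1 gene, fell by 0.94 (adjusted p = 0.000219) and Atg7, the E1 of autophagy, rose by 0.59 (adjusted p = 0.00292). Of 13 modifier genes 7 were measured, and 1 rose and 3 fell over the whole span, with Sumo3 falling by 0.58 (adjusted p = 0.00189). The E1 Uba1 is not analysed here. Of 8 genes with an E2 fold and another name, 4 fell over the whole span (35.2% of all genes did), with a list median of -0.20 beside -0.18 over all genes. They include Atg10, the E2-like enzyme for Atg12, by 1.14 (adjusted p = 0.000958), and Birc6 by 0.65 (adjusted p = 0.000392).

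Among 28 measured E3 ligases and activators of 31 listed, 6 rose and 4 fell in 16 versus 8 days, 8 and 8 in 24 versus 16 days, and 15 and 10 in 24 versus 8 days. These are 21.4% and 14.3%, 28.6% and 28.6%, and 53.6% and 35.7% of the list, against 10.4% and 14.3%, 13.2% and 20.1%, and 19.2% and 35.2% of all genes, so that the share of falls over the whole span was near the background. Their median log2 change was 0.05, -0.03 and 0.34, beside -0.02, -0.16 and -0.18 over all genes. The list was chosen with earlier results of these data known, so its larger share of rises is no test against all genes. Klhl10, a spermatid adaptor of cullin 3 ligases, rose by 3.07 ± 0.23 in 24 versus 16 days (adjusted p = 1.47e-05), and Cul3 rose by 0.22 in the same comparison (adjusted p = 0.0494). Over the whole span Nedd4 and Huwe1, a pair of HECT ligases, fell by 1.23 and 1.19 (adjusted p = 6.23e-05 and 1.66e-05). In 16 versus 8 days Ccnb1ip1, a ligase needed for meiotic crossovers, rose by 0.81 (adjusted p = 0.00757) and Pias3, a SUMO ligase, fell by 0.71 (adjusted p = 0.00348).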

How the data were processed

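The authors deposited log2 values of 28815 array rows for 9 mouse testis arrays. That the values are relative to each row's median, and that the log base is 2, was read from the values themselves and their range; the steps by which the authors corrected and normalized the signals are not given in the sources used here, and the array type (MoGene 1.0 ST) comes from the platform annotation. Every row had a blank cell (38964 in all) and, with blanks as 0, a median of 0, so blanks were taken as 0. Rows with exactly 1 gene symbol (21780) were averaged per gene; 1605 rows with several symbols and 5430 with none stayed out. E2 genes had 48 rows, 10 of them with several blanks. Values centred this way give no detection limit and allow no filter on dim genes.

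The model for all 19935 genes had 1 mean per age (limma 3.58.1 under R 4.3.3, with lmFit and then eBayes, 6 residual and 3.824 prior degrees of freedom; tested on simulated data), 2-sided, with Benjamini-Hochberg adjustment over all genes and a threshold of 0.05. Arrays were grouped by the age in their titles; replicates 1 and 2 carry that number in the title and replicate 3 carries none. Members, lists, tests and motifs were chosen with earlier results of these data known. Named are all UBE2D genes, Ube2a and Ube2b, and per comparison up to 6 called rises and 6 falls of other members and up to 3 changes per pathway list. Further genes were added after their values were seen, namely the other members and the pathway genes Rad18, Rnf20, Rnf40, Ubr1, Ubr2, Cdc20, Fzr1, Cul3 and Uba6. Promoter windows came from RefSeq (GRCm38.p6) for 29 of 35 genes. Alternatives covered scaling, blanks, rows, weights, size of change, replicate blocks and left-out arrays.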

Additional observations from a re-analysis of the deposited data

Results flagged for a closer look

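In 4 E2 genes the change in 24 versus 16 days differed from the change in 16 versus 8 days in limma's test of that difference, adjusted over all genes. The later minus the earlier log2 change was -3.62 for Ube2d2b, -2.44 for Ube2u and -1.21 for Ube2t, whose rises came mainly before 16 days, and 1.37 for Ube2dnl2, whose rise came after 16 days. The differences of Ube2d2b and Ube2u were called under all 21 alternatives. That of Ube2t was lost in 6, namely without any 1 of the arrays at 16 days, without both arrays with high olfactory receptor values, with the replicate block on 6 arrays and with limma's treat, and ran from -1.35 to -1.03. That of Ube2dnl2 was lost in 10 and ran from 1.15 to 1.58. It was not called without replicate 1 or 3 at 8 days, without any 1 of the arrays at 16 days, or without replicate 2 at 24 days, nor without both olfactory receptor arrays, with blanks left missing, with array weights or with treat, and the cause was not tested.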

How the results depend on the processing

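No result of an E2 gene that passed its test changed direction under any of up to 22 alternatives. Single-gene results (with Ube2b minus Ube2a) kept their direction and side of the threshold in 2035 gene, comparison and setting combinations, changed sign without a call on either side in 60, lost a call in 145 and gained one in 56. A minimum of 2-fold left 0 of 2 falls in 16 versus 8 days, 3 of 6 rises and 0 of 6 falls in 24 versus 16 days, and 4 of 9 rises and 0 of 12 falls in 24 versus 8 days; limma's treat against 1.5-fold gave 2 rises and 0 falls, 3 and 0, and 4 and 0, and 0 genes with a higher second interval in place of 1. Falls in 16 versus 8 days (2) numbered 0 with each array centred, 1 with only the arrays of 2 ages, 5 with array weights, and 0 to 5 when 1 array was left out, with 5 without replicate 1 at 8 days and 0 without replicate 2 at 8 days or replicate 1 or 2 at 16 days. Falls in 24 versus 16 days (6) numbered 3 with centring. Without both arrays with high olfactory receptor values falls numbered 4 in 16 versus 8 days and 10 in 24 versus 16 days, and 0 genes had a higher second interval. That count of 1 was also 0 with blanks missing and with array weights, and 0 to 1 when 1 array was left out. Same-numbered arrays are not stated to be paired, and correlations of their deviations ran from -0.46 to 0.45. A replicate block on the 6 numbered arrays gave 0 falls in 16 versus 8 days, 3 rises and 0 falls in 24 versus 16 days and 6 falls in 24 versus 8 days, and on all 9 arrays 1 fall in 16 versus 8 days. For Ube2d2b minus its family the block on 6 arrays gave 5.34 (exact permutation p = 0.167) and 2 ages alone gave 5.22 (exact permutation p = 0.1), each the smallest p that design allows. Both size rules can only remove calls, by construction. The block on 6 arrays and the left-out arrays also use fewer arrays, but the counts depended on which array was left out. For these and for the other settings the cause of the lost calls was not tested. The shares of all genes called under the alternatives were not counted, so the E2 counts under them have no background beside them.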
